A study of Mus musculus with 4 samples.

Results

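The 9 genes described here encode mouse monocarboxylate transporters and the membrane proteins that escort them to the cell surface, namely Slc16a1, Slc16a3, Slc16a6, Slc16a7, Slc16a10, Slc16a13, Slc5a8, Bsg and Emb. They were taken by gene symbol from the annotation of MoGene 2.0 whole-transcript arrays, using rows annotated to exactly 1 gene and, for a gene with several such rows, the brightest. All 9 had a value, out of 22180 genes tested. The arrays carried RNA from primary keratinocytes, the epithelial cells of the epidermis, taken from C57BL/6J mice 1 week after birth. The KO group came from Glut1_fl/fl K14 Cre mice, labelled Glut1-deficient, in which floxed Glut1 alleles are combined with Cre driven by the keratin 14 promoter of basal keratinocytes. The WT group came from Glut1_fl/fl mice, which carry the same floxed alleles without the Cre. Each genotype had 4 mice. Cells of both genotypes grew in a keratinocyte medium with 0.05 mM calcium chloride, 5 ng/ml epidermal growth factor and 0.5 ug/ml insulin, were reseeded at equal number after 3 days and were harvested 1 day later. Pooling 2 plates of a genotype per array gave 2 arrays per genotype, with 1000000 KO cells or 1500000 WT cells lysed per sample. All values are log2 intensities, 1 unit being a factor of 2, and precision is limited by the number of arrays. Intensities of different rows depend on their probes, so levels were compared between arrays and not between genes.

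Keratinocytes import glucose through Glut1, encoded by Slc2a1, and glycolysis turns it into pyruvate and lactate. Lactate leaves or enters a cell together with a proton through monocarboxylate transporters, of which MCT4 (Slc16a3) is known mainly as an exporter of glycolytic cells, and MCT1 (Slc16a1) as a carrier of lactate, pyruvate and ketone bodies in either direction. To reach the plasma membrane, MCT1 and MCT4 are known mainly to use basigin (Bsg) as a partner, and MCT2 (Slc16a7) embigin (Emb). These pairings need not be exclusive. The comparison asks how the transcripts of these carriers differ between keratinocytes labelled deficient in this importer and WT keratinocytes.

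The deleted gene itself was read first. The brighter Slc2a1 row was at 11.01 and 11.01 on the KO arrays, against 11.13 and 11.05 on the WT arrays, a difference of -0.07 on the log2 scale (adjusted p = 0.675, limma). A dimmer Slc2a1 row was at 4.80 and 4.44 on the KO arrays and at 5.18 and 5.09 on the WT arrays. Where the probes lie relative to the deleted part is not given in the sources used here, so neither row checks the genotype labels. Of the keratinocyte markers Krt14 was at 12.15 and 12.21 on the KO arrays and 12.56 and 12.54 on the WT arrays. Perp was at 12.18 and 12.14 on the KO arrays, against 11.88 and 11.86 on the WT arrays, and Dsp at 11.66 and 11.71 on the KO arrays, against 11.72 and 11.62 on the WT arrays. The 9 keratinocyte markers with a value had a median log2 fold change of 0.01, and 0 passed (limma, 4 at unadjusted p under 0.05). Over all genes 2.84% passed and 22.2% were at unadjusted p under 0.05 in the same fit. Among markers of other cells, those of melanocytes rose in 4 of 8 cases, with a summed linear intensity of 963 and 1029 on the KO arrays, against 471 and 378 on the WT arrays. The 11 fibroblast markers summed to 1278 and 737 on the KO arrays, against 402 and 366 on the WT arrays, with a median log2 fold change of 0.93 and 0 past the test (limma, 9 at unadjusted p under 0.05). No member of the macrophage, T cell, erythroid, skeletal muscle, adipocyte or Schwann cell lists passed (limma, 0 to 2 per list at unadjusted p under 0.05). Of 6 endothelial markers Kdr rose, while the endothelial markers Pecam1 and Cdh5 had log2 fold changes of -0.35 and -0.10.

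The promoters of the only members that passed the test, Slc16a3 and Slc16a1, are shown because they carry different arrangements of the letters ACGTG and GCGTG, the core forms of the element that hypoxia-inducible factors bind. Each line gives the 250 bases before the annotated start of the gene, from RefSeq on GRCm38.p6, plus strand, with matches to either core on either strand in capitals. The Slc16a3 window is chr11:120948817-120949066 and the Slc16a1 window chr3:104638414-104638663.
Slc16a3: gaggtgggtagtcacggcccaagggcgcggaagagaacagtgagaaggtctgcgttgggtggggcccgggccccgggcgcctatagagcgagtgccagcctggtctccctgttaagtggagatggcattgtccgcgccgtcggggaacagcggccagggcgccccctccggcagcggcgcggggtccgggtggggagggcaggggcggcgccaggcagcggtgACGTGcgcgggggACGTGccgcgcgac
Slc16a1: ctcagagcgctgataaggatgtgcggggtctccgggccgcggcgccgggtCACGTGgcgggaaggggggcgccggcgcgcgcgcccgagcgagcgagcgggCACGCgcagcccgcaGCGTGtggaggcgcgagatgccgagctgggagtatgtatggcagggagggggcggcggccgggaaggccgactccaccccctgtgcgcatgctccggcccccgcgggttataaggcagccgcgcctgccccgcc
The Slc16a3 window held ACGTG 2 times, beginning 27 and 14 bases before the start of the gene. In the Slc16a1 window the match to ACGTG, 200 bases before the start, was the palindrome CACGTG, an E-box as bound by Myc and MondoA family factors, which reads as ACGTG on both strands. That window also held GCGTG 2 times, once on each strand. Over 32851 promoter windows of the same length, 16.6% held ACGTG, 28.2% held GCGTG and 6.02% held CACGTG, counting both strands. These are shares with at least 1 match, and the share with 2 was not counted. RefSeq windows were matched for 5 of the 9 genes. Those of Slc16a10, Slc5a8 and Emb held no ACGTG, while Slc16a10 had GCGTG 2 times and Slc5a8 1 time. The C/EBP-ATF composite element TGATGNAA, the cyclic AMP element TGACGTCA and the AP-1 element TGANTCA matched none of the 5 windows, and the NRF2 core TGACNNNGC matched that of Slc16a1, overlapping its E-box. These are matches of letters and not measured binding. Over all windows 3.45% held the C/EBP-ATF element, 1.55% the cyclic AMP element, 6.75% the AP-1 element and 10.2% the NRF2 core. The windows shown are 76.4% (Slc16a1) and 73.6% (Slc16a3) G or C, and the shares over all windows were not matched for this.

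Of the carriers, Slc16a3 fell and Slc16a1 rose, and no other member passed. Slc16a3, which encodes MCT4 (Entrez gene 80879), was at 7.67 and 7.63 on the KO arrays, against 8.71 and 8.66 on the WT arrays. The KO arrays lay far below the WT arrays, with little spread in either pair. Slc16a3 fell to 7.65 ± 0.03 in KO cells, against 8.68 ± 0.03 in WT cells (SD, n = 2 each), or 48.8% of the WT level (95% interval of the fold 1.76 to 2.38 lower; limma adjusted p = 0.0187). Slc16a1, which encodes MCT1 (Entrez gene 20501), was at 9.72 and 9.61 on the KO arrays and at 9.06 and 9.04 on the WT arrays. Here both KO arrays lay above both WT arrays. Slc16a1 rose by a log2 fold change of 0.61 with a standard error of 0.09, a 1.53-fold increase (95% interval of the log2 value 0.38 to 0.84; limma adjusted p = 0.0447). The rise thus passed narrowly. A larger absolute change than that of Slc16a3 was seen in 1.50% of all genes, and a larger one than that of Slc16a1 in 5.14%. With 1 array left out, the log2 fold change of Slc16a3 stayed between -1.06 and -1.01 and that of Slc16a1 between 0.56 and 0.67. Neither passed in those fits, which keep 1 residual degree of freedom and call no gene at all (limma, 2948 to 4627 genes at unadjusted p under 0.05): the adjusted p of Slc16a1 was 0.209 without KO array 1, 0.112 without KO array 2, 0.288 without WT array 1 and 0.258 without WT array 2, and that of Slc16a3 ran from 0.0865 (without KO array 2) to 0.226 (without WT array 1).

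**Figure D1:**
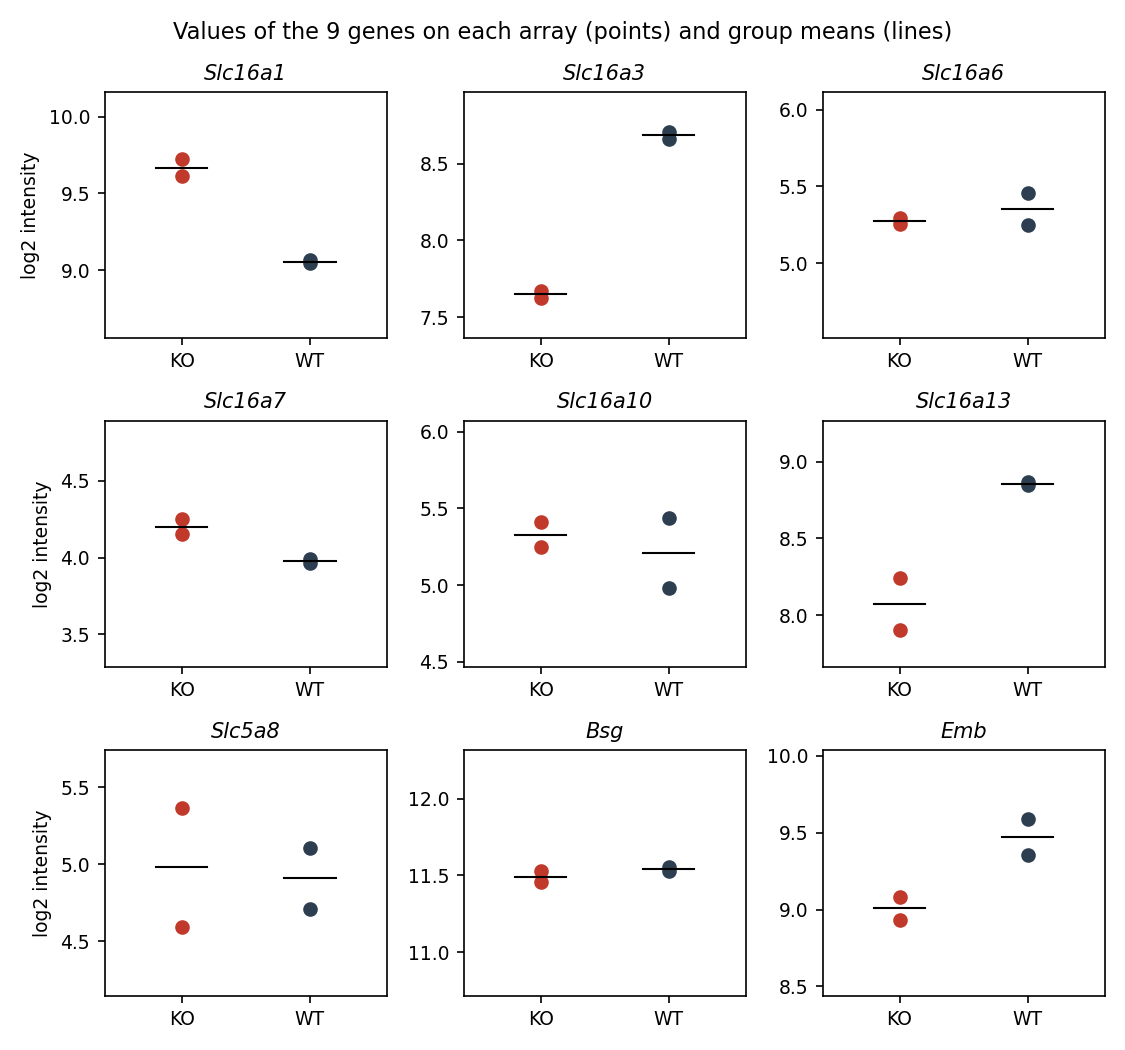
Log2 intensity of each gene on the 2 KO arrays (red points) and the 2 WT arrays (dark points), with the group mean as a line. All panels span the same range of 1.6 log2 units. Slc16a1 is higher and Slc16a3 lower on both KO arrays, Slc16a13 and Emb lie lower, and Bsg is nearly level.

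Another row bears on Slc16a3. It is annotated to both Slc16a3 and Csnk1d, a casein kinase gene that lies next to Slc16a3 in the RefSeq gene table, and was therefore left out of the selection. This shared row was at 8.61 and 8.72 on the KO arrays, against 8.81 and 8.76 on the WT arrays, which differed by -0.12 on the log2 scale (95% interval -0.39 to 0.15). The shared row therefore did not show the fall of the row that names Slc16a3 alone. Which of the 2 genes its probes measure is not given in the sources used here, and Csnk1d had no row of its own among the tested genes. When Slc16a3 was read from the shared row in the fit over genes, 1 of the 9 genes passed, and the limma adjusted p of Slc16a3 was 0.499.

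Because both changes were measured on the same arrays, the difference between Slc16a3 and Slc16a1 was followed on each array, relative to its WT mean. The pairs set against each other here were picked after the values were seen, and the differences are given without a test. The difference of Slc16a3 minus Slc16a1 stood at -1.68 and -1.61 on the KO arrays, against 0.01 and -0.01 on the WT arrays. On the row that names Slc16a3 alone, the balance of the 2 transcripts thus shifted 3.13-fold towards Slc16a1, and the KO arrays differed little from each other. This restates the 2 fold changes already given, and the shared row, at -0.12, would give a smaller shift. For Slc16a13 minus Slc16a1 the shift was -1.62 and -1.17 on the KO arrays, so the KO arrays were farther apart. Slc16a3 minus Slc16a13 stood at -0.06 and -0.45 on the KO arrays, with 0.01 and -0.01 on the WT arrays.

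**Figure D2:**
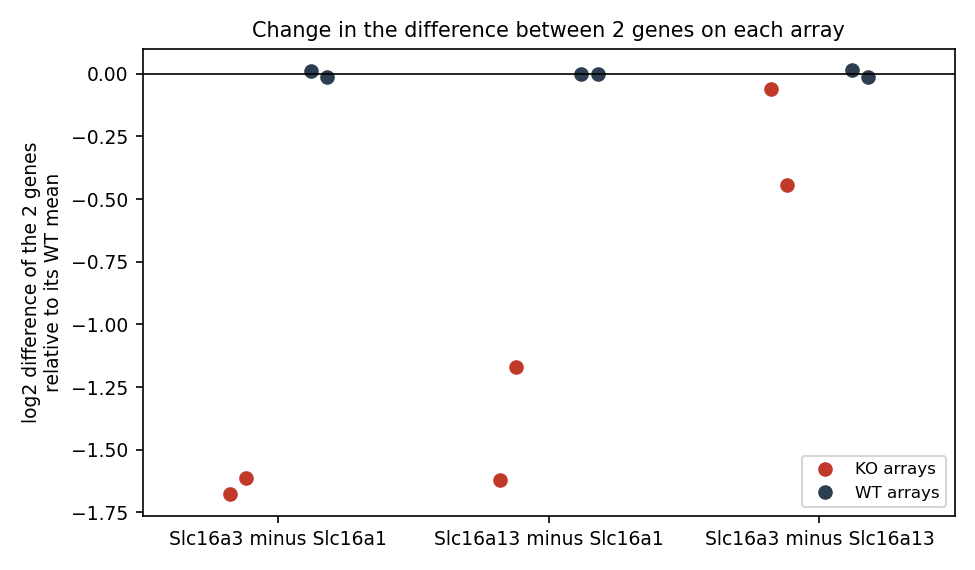
Log2 difference between the members of 3 gene pairs on each array, set to 0 at the WT mean, with KO arrays in red and WT arrays dark. The difference of Slc16a3 minus Slc16a1 is -1.68 and -1.61 on the KO arrays, and the WT arrays lie within 0.014 of 0 for all 3 pairs.

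Slc16a13, which encodes MCT13, a family member studied mainly in liver, was at 7.90 and 8.24 on the KO arrays, against 8.86 and 8.85 on the WT arrays. The groups did not overlap, and the KO arrays differed from each other by more than the WT arrays did. On the log2 scale it was lower by a fold change of -0.78 (95% interval -1.13 to -0.43), just outside the threshold (limma adjusted p = 0.0594). It stood at -0.61 without KO array 1 and at -0.95 without KO array 2. It did pass in a fit with an intensity trend in the variance (adjusted p = 0.00591) and when genes below the median level were left out (adjusted p = 0.0204). Those fits called 2671 of all genes and 2327 of the genes above the median level. It did not pass with all rows tested (limma adjusted p = 0.159), with the replicate number as a block (0.11) or with an unmoderated statistic (0.296). Slc16a11, the gene next to Slc16a13 in the RefSeq gene table, was at 4.17 and 4.76 on the KO arrays, against 4.71 and 4.68 on the WT arrays, so its groups overlapped (log2 fold change -0.23, 95% interval -0.75 to 0.30). Of the 16 genes flanking the 9 members that had a value, 0 passed (limma, 7 at unadjusted p under 0.05, against 22.2% of all genes).

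The remaining carriers did not pass. Slc16a7, the high-affinity transporter MCT2, was at 4.25 and 4.15 on the KO arrays, against 3.97 and 3.99 on the WT arrays. Its groups did not overlap, but its row lay below the median of all tested genes (4.76), where array signals are dim. Its log2 fold change, 0.22, had an interval from -0.01 to 0.45 (95%; limma adjusted p = 0.236). Slc16a10, the aromatic amino acid transporter TAT1, was at 5.25 and 5.41 on the KO arrays, against 4.98 and 5.44 on the WT arrays. Slc16a6, which encodes MCT7, a ketone body exporter in zebrafish liver, was at 5.26 and 5.29 on the KO arrays and 5.46 and 5.25 on the WT arrays. In both genes the WT arrays alone spanned the KO values. Slc5a8, the sodium-coupled carrier SMCT1, was at 4.59 and 5.37 on the KO arrays, against 5.11 and 4.71 on the WT arrays, so its KO arrays lay on either side of the WT arrays. The log2 fold changes of these 3 genes were 0.12 (95% interval -0.33 to 0.57), -0.08 (-0.35 to 0.20) and 0.07 (-0.67 to 0.82), in that order. The interval of Slc5a8 is wide enough to hold a change as large as that of Slc16a1 in either direction.

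Neither partner gene passed. Bsg was at 11.46 and 11.53 on the KO arrays, against 11.53 and 11.55 on the WT arrays. The groups were separated by almost nothing, and the 95% interval of the log2 fold change ran from -0.27 to 0.17, around a value of -0.05 (limma adjusted p = 0.794). That interval holds neither the fall of Slc16a3 nor the rise of Slc16a1. Emb, an immunoglobulin-family protein related to basigin, was at 8.93 and 9.08 on the KO arrays and 9.59 and 9.35 on the WT arrays. Both KO arrays lay below both WT arrays, with a log2 fold change of -0.46 (95% interval -0.78 to -0.15; limma adjusted p = 0.117). Emb passed in the fit with an intensity trend (adjusted p = 0.0196) and among genes above the median level (adjusted p = 0.044). It did not pass with all rows tested (limma adjusted p = 0.235), with the replicate number as a block (0.196) or with an unmoderated statistic (0.348). A second, dimmer Emb row had 4.75 and 4.88 on the KO arrays, against 4.96 and 4.89 on the WT arrays, a log2 fold change of -0.11. The rows thus gave changes of different size. Neuroplastin (Nptn), the third protein of this immunoglobulin group, was at 9.52 and 9.49 on the KO arrays, against 9.76 and 9.72 on the WT arrays, and its log2 fold change of -0.23 did not pass (limma adjusted p = 0.2).

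Counted together, 2 of the 9 genes passed at an adjusted p under 0.05, which 2.84% of all tested genes did. Of these, 1 rose, against 1.79% of all genes, and 1 fell, against 1.05%. At an unadjusted p under 0.05 there were 4 of the 9 (Slc16a13 and Emb in addition), against 22.2% of all genes. Since the 9 genes were chosen with earlier results of these arrays known, the shares are a description. Arrays of the genotypes did not overlap for 6 of the 9 genes, 2 with KO above WT (Slc16a1, Slc16a7) and 4 with KO below (Slc16a3, Slc16a13, Bsg, Emb). This is near the background, as 53.2% of all genes did not overlap, 25.5% with KO above and 27.7% with KO below. The median log2 fold change of the 9 genes was -0.05 and that of all genes -0.01. RNA was measured over whole cultures, so fewer cells of a type and less RNA per cell cannot be told apart. The summed fibroblast markers were 1278 on KO array 1 and 737 on KO array 2. Relative to the WT mean, Slc16a3 was at -1.01 and -1.06 on these arrays, Slc16a1 at 0.67 and 0.56, Slc16a13 at -0.95 and -0.61 and Emb at -0.54 and -0.39. The part of other cell types in these changes was not tested.

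**Figure D3:**
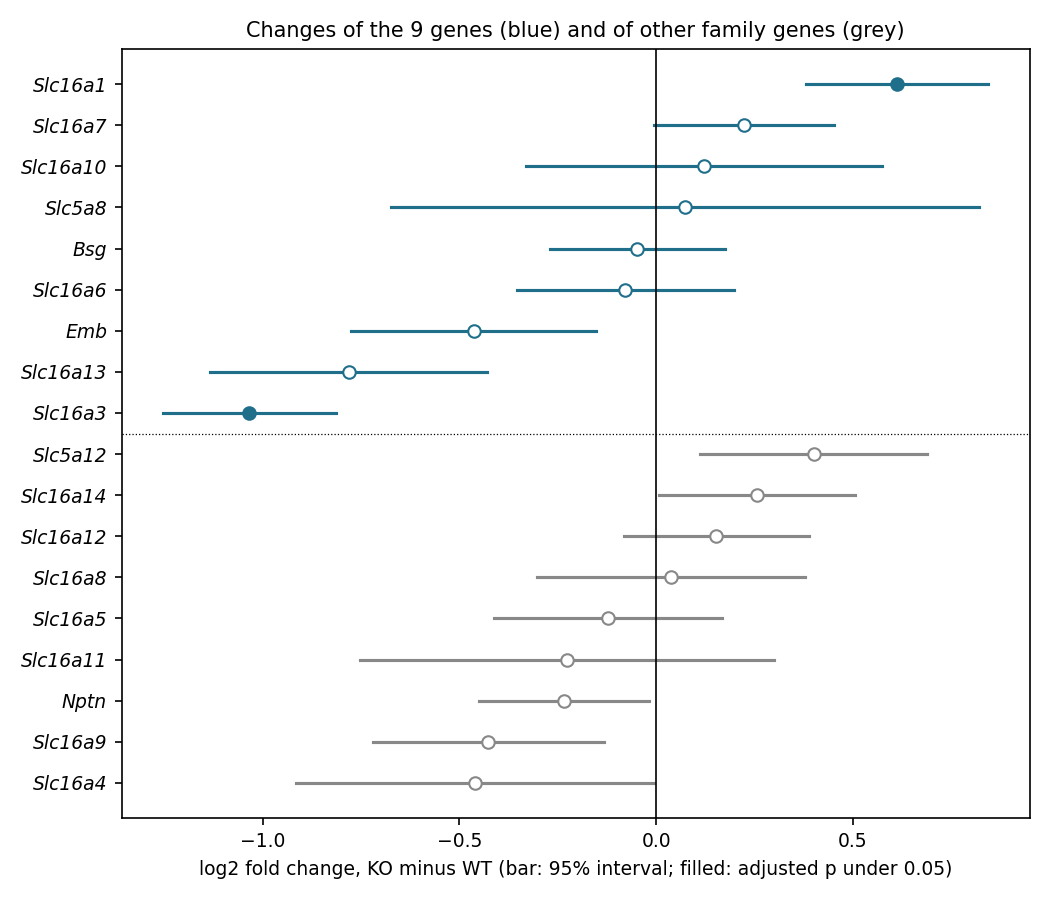
Log2 fold change, KO minus WT, of the 9 genes (blue, top) and of 9 other family genes (grey, bottom), with 95% intervals. Filled points passed at an adjusted p under 0.05. Only Slc16a1 (0.61) and Slc16a3 (-1.03) are filled.

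Genes whose values ran most like those of the members that passed were found by Euclidean distance over the 4 arrays, after centring each gene on its own mean. For Slc16a1 they were Grpel2 (distance 0.019), Sgf29 (0.027) and Tatdn1 (0.035), with log2 fold changes of 0.60, 0.61 and 0.61. For Slc16a3 they were Adamts15 (distance 0.038), Glrp1 (0.069) and Rdh10 (0.102), with log2 fold changes between -1.06 and -0.97. With 4 arrays in 2 groups, such likeness mostly reflects a similar size of change.

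Other carriers of the family, and the enzymes that make or use the transported acids, mostly did not pass. Over all 22180 genes 2.84% passed (limma, 22.2% at unadjusted p under 0.05), and 2671 passed with an intensity trend. Of 9 other SLC16, SLC5 and neuroplastin genes with a value, 0 passed (limma, 5 at unadjusted p under 0.05, and 1 passed with an intensity trend), with a median log2 fold change of -0.12. Slc16a9, reported in human cells as a carnitine carrier, was at -0.43 and Slc5a12, the second sodium-coupled lactate carrier, at 0.40, the last on a row below the median gene. The mean of the 2 Slc16a9 rows gave a smaller change, -0.24. In the list of 25 lactate and pyruvate genes 1 rose and 0 fell, with a median of -0.03, and with an intensity trend 4 rose and 1 fell. That gene was Gpt2, the mitochondrial alanine transaminase that interconverts pyruvate and alanine, at 8.45 and 8.45 on the KO arrays, against 7.04 and 7.10 on the WT arrays (log2 fold change 1.38; limma adjusted p = 0.0129). The lactate dehydrogenase genes did not pass. Ldha was at 6.09 and 6.17 on the KO arrays and 6.20 and 6.39 on the WT arrays, which is -0.16 in log2 fold change (95% interval -0.43 to 0.11). Ldhb had a log2 fold change of -0.13 and Mpc1, a subunit of the mitochondrial pyruvate carrier, one of 0.10. Of 7 ketone body genes 0 passed (limma, 3 at unadjusted p under 0.05, and 1 passed with an intensity trend), and their median was -0.17. Oxct1, the enzyme that activates ketone bodies for use, was at 9.86 and 9.91 on the KO arrays, against 9.70 and 9.48 on the WT arrays, with a log2 fold change of 0.30, while the dim rows of Bdh2 and Oxct2a stood at 0.37 and -0.42. With 1 array left out, the values of these genes that did not pass moved by more than 1.5 times, to 0.19 for Oxct1, 0.22 for Bdh2, -0.27 for Oxct2a, -0.07 for Ldha, -0.05 for Ldhb and 0.05 for Mpc1 at the smallest.

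**Figure D4:**
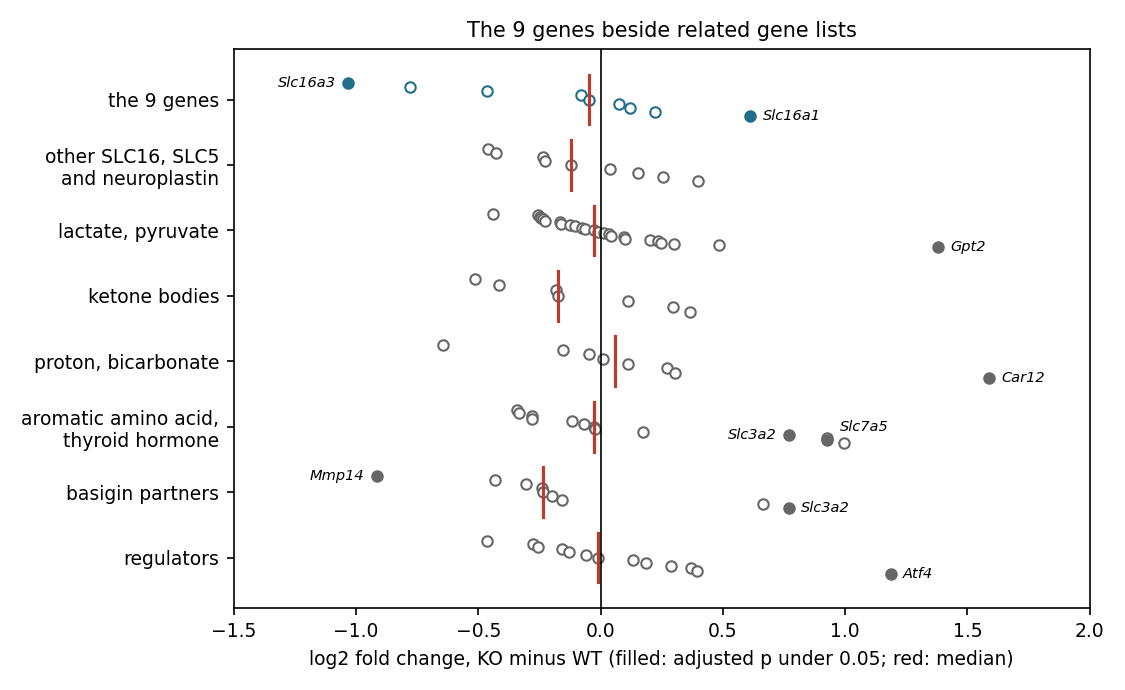
Log2 fold change, KO minus WT, of each gene in the set of 9 and in 7 related lists, 1 point per gene. Filled and named points passed at an adjusted p under 0.05, and red lines mark medians. Medians lie between -0.23 and 0.06, with Gpt2, Car12, Slc7a5, Slc3a2 and Atf4 as the genes that rose beside Slc16a1.

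Proton and bicarbonate handling accompanies lactate transport. Over all genes 2.84% passed (limma, 22.2% at unadjusted p under 0.05), and 2671 of 22180 passed with an intensity trend. Of 8 proton and bicarbonate genes, 1 rose and 1 fell with an intensity trend. In the main fit 1 rose and 0 fell (limma, 2 at unadjusted p under 0.05), with a median of 0.06. The gene was Car12, a membrane carbonic anhydrase, at 8.45 and 8.02 on the KO arrays, against 6.71 and 6.59 on the WT arrays (log2 fold change 1.59; limma adjusted p = 0.0255). Slc16a10 shares substrates with a wider group of aromatic amino acid and thyroid hormone genes. Of the 13 in that group 2 rose and 0 fell (limma, 5 at unadjusted p under 0.05), and the median was -0.03. With an intensity trend 4 of them rose and 0 fell. Slc7a5, the light chain of the large neutral amino acid exchanger, was at 10.77 and 10.71 on the KO arrays, against 9.77 and 9.86 on the WT arrays (log2 fold change 0.93; limma adjusted p = 0.022). Its heavy chain Slc3a2, known as CD98, was at 11.01 and 10.88 on the KO arrays, against 10.17 and 10.18 on the WT arrays (log2 fold change 0.77; limma adjusted p = 0.0318).

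CD98 is also a reported partner of basigin, and in the list of 9 basigin partners and ligands it was the 1 gene that rose. Mmp14, a membrane-bound matrix metalloproteinase, was the 1 that fell, with 9.78 and 9.87 on the KO arrays, against 10.69 and 10.79 on the WT arrays (log2 fold change -0.92; limma adjusted p = 0.0249). The list had a median of -0.23, with 7 of its genes at unadjusted p under 0.05 (limma), against 22.2% of all genes. With an intensity trend 8 of its genes passed, 2 higher and 6 lower, against 2671 of all 22180 genes. Of 13 transcriptional regulators reported for monocarboxylate transporter genes 1 rose and 0 fell (limma, 6 at unadjusted p under 0.05), with a median of -0.01. With an intensity trend 3 rose and 1 fell. The gene that rose in both was Atf4, the transcription factor of the integrated stress response, at 10.16 and 9.97 on the KO arrays, against 8.82 and 8.93 on the WT arrays (log2 fold change 1.19; limma adjusted p = 0.0211). Of those at unadjusted p under 0.05 only (limma), Hif1a was at 0.29, Epas1 at 0.37 and Myc at 0.39 in log2 fold change. Mlxip was at -0.28 and Nfe2l2 at -0.46.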

How the data were processed

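RNA from 4 samples of mouse keratinocytes was hybridised to MoGene 2.0 arrays. The deposited values are log2 intensities, which the authors made by RMA in Affymetrix Expression Console, as the submitters' processing notes say. RMA sets all arrays to a common distribution, so changes are relative to other genes. No version, genome build or detection call is given in the sources used here. The table held 41345 rows, of which 23521 had exactly 1 symbol. The brightest row of each gene gave 22180 genes.

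KO minus WT was fitted over all genes in R 4.3.3 with limma 3.58.1 (lmFit, eBayes without an intensity trend, two-sided), adjusted by Benjamini-Hochberg over all genes at a threshold of 0.05. "Rose" and "fell" mean past that threshold. With 2 arrays per group, an exact permutation test of a single value cannot go below p = 0.333. The arrays pool plates and are labelled biological replicates, and p-values reflect only how these pools vary. On simulated arrays of 22180 genes the fit found 1 of 50 genes with a log2 change of 0.5. For log2 changes of 1, 2 and 3 it found 28, 50 and 48 of 50. Only 50 genes were changed at each size, whereas 4923 genes were at unadjusted p under 0.05 on the real arrays (limma). The adjustment was therefore stricter in the simulation, and its recovery does not carry over to these arrays.

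The 9 genes and the 7 related lists were chosen with earlier results of these data known, so lists are described by counts and medians without set tests. Named genes were the 9 members, list genes past the threshold (otherwise the 3 with the smallest p), Ldha, Ldhb, Mpc1 and Nptn, Slc2a1, the 3 nearest patterns and leading cell markers. The regulators at unadjusted p under 0.05 (limma) and the neighbouring genes Slc16a11 and Csnk1d were named in addition, outside this rule. Promoters were searched for 7 motifs. Alternatives covered the variance model, normalization, row choice, a filter on dim genes, leaving out arrays, the replicate number as a block, thresholds and an unmoderated statistic. Figures were drawn with matplotlib 3.10.9.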

Additional observations from a re-analysis of the deposited data

How the results depend on the processing

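With 2 arrays per genotype, the calls depended on how the spread of a gene was estimated, and some fold changes depended on the row or array used. The row annotated to both Slc16a3 and Csnk1d was at -0.12, and which of these genes it measures is not given. The second Emb row was at -0.11. Of the 9 genes, 4 passed with an intensity trend, without or with robust estimation, and 4 among genes above the median level (Slc16a13 and Emb in addition, 1 higher and 3 lower in each), against 2 in the main analysis. Slc16a7 lies below the median level and was not tested there. Over all genes, 2671 and 2729 passed with the intensity trend, against 630, and 2327 of the genes above the median level passed. None of the 9 passed when all 41345 rows were tested (0 of all rows, 6694 at unadjusted p under 0.05 in limma), with the unmoderated statistic (0 of all genes, 3646 at unadjusted p under 0.05) or at an adjusted p under 0.01 (4 of all genes). At an adjusted p under 0.1 there were 1855 over all genes and 3 of the 9. With any 1 array left out the counts ranged from 0 to 0 for all genes and from 0 to 0 for the 9 genes (limma, 2948 to 4627 genes at unadjusted p under 0.05), which follows a loss to 1 residual degree of freedom. Reading Slc16a3 from the row shared with Csnk1d, an alternative chosen after seeing the data, left 1 of the 9. Median centring, quantile normalization, cyclic loess and the mean of a gene's rows kept the count at 2.

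Replicate numbers are shared by the genotypes, but arrays of the same number did not deviate together (r = -0.03 over genes), and nothing in the labels pairs them. With the replicate number as a block, 0 of the 9 genes and 37 of all genes passed (limma, 4335 at unadjusted p under 0.05), with adjusted p = 0.104 for Slc16a1 and 0.0575 for Slc16a3.

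The direction of 3 genes changed when an array was left out, and none of them had passed. The log2 fold change of Slc5a8 ranged from -0.31 to 0.46 (-0.13 without WT array 2), that of Slc16a10 from -0.11 to 0.35 and that of Slc16a6 from -0.18 to 0.026. The other 6 kept their sign in every setting run.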
